A study of Mus musculus with 16 samples.

Results

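Macrophages and other leukocytes leave their own transcripts in RNA taken from a whole piece of tissue, and 37 genes of these cells were followed across cultured pieces of mouse epicardium. The genes were chosen by name, from surface markers to lysosomal enzymes, and not by a threshold on their levels. The deposited count table of 15805 genes held 31 of the 37 by symbol. The other 6, Cd163, Ccr2, F13a1, Cd74, H2-Aa and H2-Ab1, were not analysed here. A filter on low counts removed C1qa, which left 30 genes for the tests.

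Epicardium covers the surface of the heart, and explants are fragments of tissue from which cells migrate out in culture. The blebbistatin explants received that compound, an inhibitor of nonmuscle myosin II, the motor protein that gives non-muscle cells their contractile force (n = 8). The control explants were cultured without it (n = 8). All 16 were primary explants of C57BL6 mice, kept on a 1% collagen gel and labelled as epicardial cells. The labels give the concentration of blebbistatin in conflicting units, so it is not printed, and give neither the age of the mice, the culture time nor the solvent used for the controls. They do not say that the explants came from separate animals, so each p-value measures the spread between these explants, part of which may be technical.

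Total counts ran from 20176386 to 89620195 in the blebbistatin explants and from 27065611 to 60321622 in the control explants. Levels are given in CPM, that is, counts made comparable between libraries by dividing by library size, here with TMM normalization. All 12 epicardial markers looked for were in the table, and their summed level was 1218 to 3954 CPM in blebbistatin explants and 1795 to 4207 CPM in controls. All 8 fibroblast markers were there too, at 3852 to 13164 CPM in blebbistatin explants and 7361 to 11876 CPM in controls. Cardiomyocyte markers, 5 of 9 in the table, summed to 679 to 1127 CPM and 433 to 920 CPM. Most of this sum was Tnnt2, which averaged 853 CPM in blebbistatin explants and 540 CPM in controls. Myl7 averaged 77.9 and 93.4 CPM, and Ryr2 5.42 and 1.24 CPM. Endothelial markers, 5 of 8, summed to 18.1 to 53.2 CPM and 32.5 to 87.1 CPM. Tek was the largest part, with a mean of 27.4 CPM in blebbistatin explants and 34.2 CPM in controls. Of 14 T and NK cell genes 2 were in the table, with a summed level of 0.750 to 3.78 CPM in blebbistatin explants and 1.43 to 3.97 CPM in controls. For B cells 1 of 8 genes was in the table, for neutrophils 1 of 10, for mast cells 1 of 8 and for red blood cells 1 of 8. For dendritic cells 3 of 8 were, with a summed level of 25.4 to 53.1 CPM in blebbistatin explants and 23.8 to 38.5 CPM in controls. Most of that was Zbtb46, which averaged 33.1 CPM in blebbistatin explants and 31.2 CPM in controls. The genes of those lists outside the table were not analysed here.

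Tissue macrophages are phagocytes that live in most organs, the heart and its outer layer included. They depend on signalling through Csf1r, the receptor for the growth factors encoded by Csf1 and Il34, and on the transcription factor PU.1, encoded by Spi1. Ptprc encodes CD45, a phosphatase on the surface of nucleated blood cells, and its RNA serves here as the yardstick for leukocyte RNA. In RNA from a whole explant, fewer leukocytes and less RNA per leukocyte cannot be told apart.

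The promoters of 6 of the genes are shown as examples picked for the presence or absence of GAGGAA, a form of the purine-rich core bound by PU.1. Forms of the core without this run of letters were not searched. Cd53, Trem2, Mrc1 and Ctss followed Ptprc closely and their promoters hold GAGGAA on either strand. The promoters of Gpnmb, which followed Ptprc as closely, and of Mertk, which did not, hold no GAGGAA. The examples do not show that GAGGAA goes with the relation to Ptprc. Each runs from 250 bases before to 50 bases after the start of transcription, 5′ to 3′ on the strand of the gene, from RefSeq on build GRCm38.p6. Capitals mark GAGGAA or its reverse complement.
Cd53 promoter, chr3:106790100-106790399, minus strand: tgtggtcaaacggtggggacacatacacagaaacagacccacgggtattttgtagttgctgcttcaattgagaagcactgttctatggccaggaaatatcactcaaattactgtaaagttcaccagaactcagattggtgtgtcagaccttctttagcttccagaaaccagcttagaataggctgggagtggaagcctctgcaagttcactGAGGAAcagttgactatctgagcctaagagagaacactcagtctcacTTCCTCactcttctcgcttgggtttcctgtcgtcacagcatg
Trem2 promoter, chr17:48346151-48346450, plus strand: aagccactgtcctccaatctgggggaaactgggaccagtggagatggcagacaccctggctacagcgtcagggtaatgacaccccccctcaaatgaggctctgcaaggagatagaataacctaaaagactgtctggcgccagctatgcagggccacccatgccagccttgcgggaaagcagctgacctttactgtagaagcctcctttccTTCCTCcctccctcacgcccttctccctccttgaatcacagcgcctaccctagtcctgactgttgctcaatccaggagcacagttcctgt
Mrc1 promoter, chr2:14229164-14229463, plus strand: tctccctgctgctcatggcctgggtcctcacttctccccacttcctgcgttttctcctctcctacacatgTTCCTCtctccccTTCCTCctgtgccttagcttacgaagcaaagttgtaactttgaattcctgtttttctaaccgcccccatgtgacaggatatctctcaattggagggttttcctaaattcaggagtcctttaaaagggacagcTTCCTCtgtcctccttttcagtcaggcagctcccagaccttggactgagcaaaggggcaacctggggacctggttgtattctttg
Ctss promoter, chr3:95526536-95526835, plus strand: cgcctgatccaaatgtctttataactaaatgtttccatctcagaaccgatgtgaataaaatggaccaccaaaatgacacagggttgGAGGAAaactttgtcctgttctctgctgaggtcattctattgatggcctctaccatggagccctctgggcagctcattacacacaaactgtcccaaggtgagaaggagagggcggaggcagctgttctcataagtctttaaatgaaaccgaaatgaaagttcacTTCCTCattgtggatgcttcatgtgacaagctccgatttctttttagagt
Gpnmb promoter, chr6:49036268-49036567, plus strand: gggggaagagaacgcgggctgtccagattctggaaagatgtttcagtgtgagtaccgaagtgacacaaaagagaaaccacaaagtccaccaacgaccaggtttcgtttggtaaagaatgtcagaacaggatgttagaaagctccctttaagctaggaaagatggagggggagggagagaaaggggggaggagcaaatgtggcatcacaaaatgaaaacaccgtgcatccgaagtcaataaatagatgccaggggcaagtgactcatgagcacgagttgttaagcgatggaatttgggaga
Mertk promoter, chr2:128698665-128698964, plus strand: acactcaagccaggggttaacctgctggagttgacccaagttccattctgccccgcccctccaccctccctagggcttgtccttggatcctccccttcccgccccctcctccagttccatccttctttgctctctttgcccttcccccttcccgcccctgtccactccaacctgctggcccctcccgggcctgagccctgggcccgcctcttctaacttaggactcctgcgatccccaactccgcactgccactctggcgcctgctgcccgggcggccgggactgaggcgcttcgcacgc
RefSeq promoters were matched for 22 of the genes by symbol, 25 promoters in all. GAGGAA, sought on both strands, was present for 13 of these 22 genes, and in 28.3% of 32851 mouse promoters of the same length. The longer GAGGAAG was present for 10 genes and in 13.6% of all promoters, GAGGAAGT for 4 genes and in 3.2%, and AGAGGAA for 6 genes and in 10.4%. The promoters of Mpeg1, Lyz2, Fcer1g and Lyz1, whose correlations with Ptprc were 0.92, 0.91, 0.90 and 0.87, hold no GAGGAA, and that of Pf4, with a correlation of 0.15, holds GAGGAAGT. Genes of the set were counted where any of their promoters held the motif, whereas the shares of all mouse promoters are per promoter. The 4 motifs overlap one another. A match is a run of letters, and binding was not measured.

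Leukocyte RNA differed widely between explants of the same group. Ptprc, on chromosome 1 at 138062861 to 138175708 (GRCm38), was at 4.60, 22.9, 102, 8.84, 16.7, 34.4, 22.4 and 16.5 CPM in blebbistatin explants 1 to 8. In control explants 1 to 8 it was at 14.6, 11.7, 43.2, 13.8, 8.78, 59.1, 7.05 and 4.64 CPM. Blebbistatin explant 3 and control explant 6 were the highest of their groups, blebbistatin explant 1 and control explant 8 the lowest, and the groups overlapped over most of their range. The highest explant had 22.1 times the Ptprc level of the lowest.

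The same explants stood at the top for nearly all of the genes. Blebbistatin explant 3 had the highest level of its group for 27 of 31 genes and control explant 6 for 26 of 31. At the low end, blebbistatin explant 4 was the lowest of its group for 13 genes, blebbistatin explant 1 for 12 and control explant 8 for 20. The mean log2 CPM over the 31 genes ran from 2.16 to 6.02 in blebbistatin explants, with a median of 3.43. In controls it ran from 2.21 to 5.53, with a median of 3.55. Summed over the 31 genes, the level was 914 to 8644 CPM in blebbistatin explants, with a median of 2528. In controls the sum was 967 to 8001 CPM, with a median of 1793. Gpnmb and Lyz2 made up much of this sum. Without them it was 371 to 3607 CPM in blebbistatin explants, with a median of 696. The corresponding control values were 359 to 2034 CPM, with a median of 601.5.

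**Figure D1:**
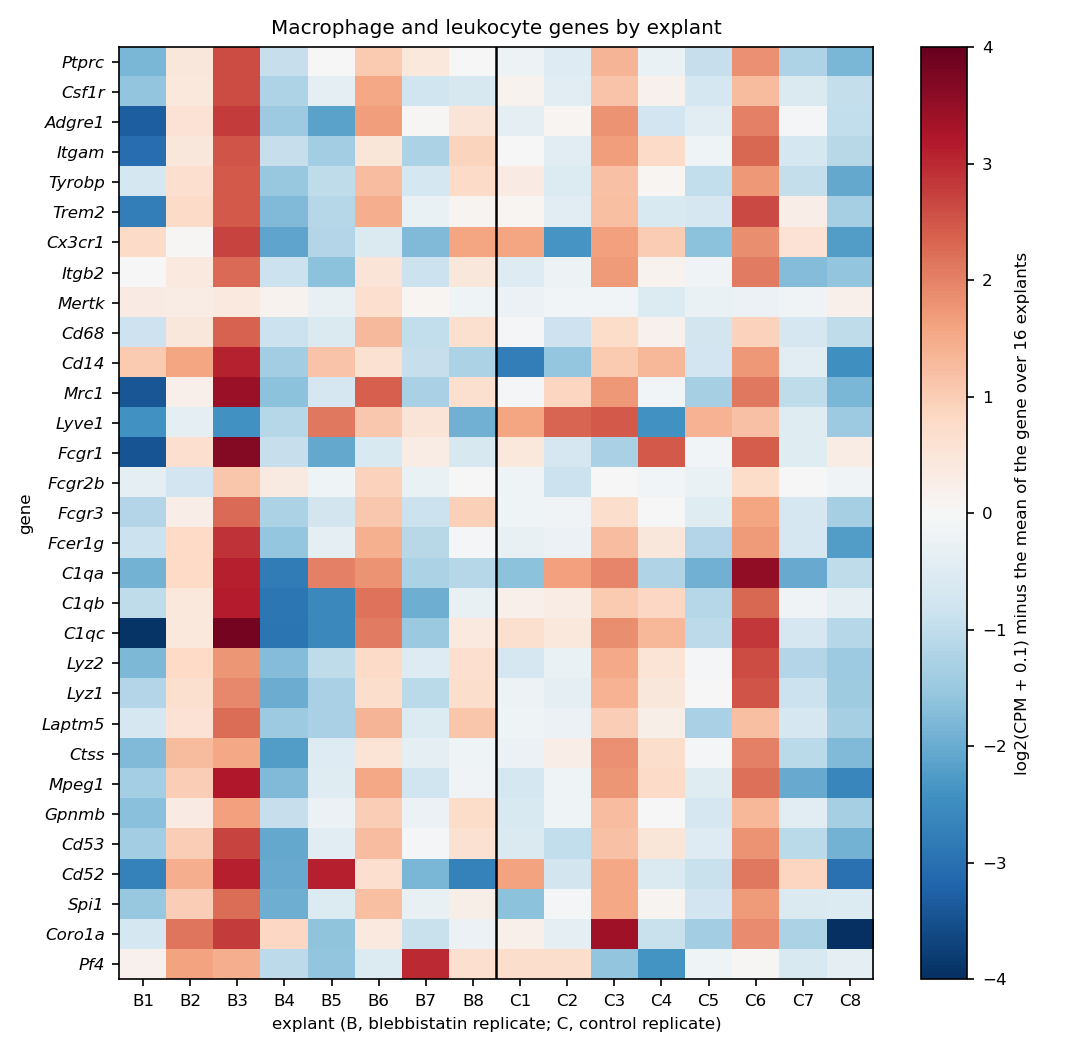
Level of each of the 31 genes (rows) in each explant (columns, blebbistatin left of control) on a log2 scale, relative to the mean of the gene. Blebbistatin explant 3 and control explant 6 form columns of high values, with the highest level of their group for 27 and 26 of the 31 genes.

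For the 30 tested genes the standard deviation of log2 level between explants of one group had a median of 1.39, against 0.52 for all tested genes. Low counts alone spread widely on this scale, so the comparison was repeated among genes averaging at least 5 CPM. There the median was 1.34 for 26 of the genes and 0.42 for all genes, and 24 of the 26 lay above 0.94, the 95th percentile of all genes at that level.

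Among the receptors, Csf1r had 12.0 CPM in the lowest, 25.6 in the median and 220.2 in the highest blebbistatin explant, against 18.9, 33.7 and 87.6 CPM in controls. Adgre1, which encodes the macrophage surface protein F4/80, had 1.33, 16.9 and 96.1 CPM in blebbistatin explants, against 6.85, 12.0 and 56.0 CPM in controls. Itgam and Itgb2 encode the 2 chains of the integrin Mac-1. Itgam had 2.93, 23.4 and 142 CPM in blebbistatin explants, against 11.3, 23.2 and 122 CPM in controls. Itgb2 had 8.35, 30.2 and 128 CPM in blebbistatin explants, against 7.77, 23.4 and 111 CPM in controls. In each of these 4 genes the ranges of the groups overlapped, and blebbistatin explant 3 held the highest level of its group.

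Tyrobp encodes DAP12, the signalling adaptor of TREM2, a lipid-sensing receptor of macrophages. Tyrobp had 13.7, 43.4 and 213 CPM in the lowest, median and highest blebbistatin explants, against 9.42, 34.2 and 132 CPM in controls. Trem2 had 1.03, 7.32 and 42.4 CPM in blebbistatin explants, against 2.98, 6.86 and 47.7 CPM in controls. Cx3cr1, the fractalkine receptor, had 0.812, 3.27 and 25.7 CPM in blebbistatin explants, against 0.671, 6.79 and 14.3 CPM in controls. Its annotated gene model overlaps other genes, and the strand setting of the counting is not given, so its counts are uncertain. The same limit may apply to other genes of the set whose models overlap a neighbour, among them Csf1r, Fcgr2b, Mertk, Cd52 and Coro1a.

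The receptors for the constant part of antibodies spanned a wide range of levels. Fcer1g, the chain through which several of them signal, had 10.5, 26.8 and 230.2 CPM in the lowest, median and highest blebbistatin explants, against 6.44, 25.7 and 102 CPM in controls. Fcgr3, an activating receptor, had 3.82, 8.36 and 44.8 CPM in blebbistatin explants, against 3.65, 8.29 and 27.7 CPM in controls. Fcgr2b, the inhibitory receptor, was steadier, at 6.70, 10.8 and 25.2 CPM in blebbistatin explants, against 6.33, 10.6 and 19.4 CPM in controls. Fcgr1, the high-affinity receptor, had no count in blebbistatin explant 1, 13.9 CPM in blebbistatin explant 3, 5.83 CPM in control explant 4 and 5.78 CPM in control explant 6. Against the limit that 3 counts in the explant without a count would give, its highest level was at least 216.55-fold higher.

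The C1q genes encode the 3 chains of the recognition molecule of complement and lie together on chromosome 4. C1qc had 0.385, 5.95 and 103 CPM in the lowest, median and highest blebbistatin explants, against 3.22, 10.4 and 51.5 CPM in controls, a 267-fold span over the 16 explants. C1qb had 1.39, 7.19 and 98.4 CPM in blebbistatin explants, against 4.94, 12.95 and 54.5 CPM in controls. C1qa was far lower, with 0, 0.656 and 5.86 CPM in blebbistatin explants, against 0.0716, 0.220 and 8.02 CPM in controls. Per kilobase of transcript the mean level over the 16 explants was 1.55 CPM for C1qa, 18.9 for C1qb and 14.8 for C1qc.

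Among receptors for microbial and scavenged ligands, Cd68, a glycoprotein of the lysosomal membrane of phagocytes, had 52.8, 107 and 541 CPM in the lowest, median and highest blebbistatin explants, against 52.0, 82.8 and 197 CPM in controls. Mrc1, the mannose receptor CD206, had 1.05, 10.7 and 135 CPM in blebbistatin explants, against 3.32, 11.4 and 52.3 CPM in controls. Cd14, a co-receptor for bacterial lipopolysaccharide, had 1.00, 5.07 and 24.4 CPM in blebbistatin explants, against 0.330, 1.81 and 9.58 CPM in controls. Lyve1, a hyaluronan receptor of lymphatic endothelium and of a subset of resident macrophages, had no count in blebbistatin explants 1 and 3 or control explant 4. Its highest level was 2.23 CPM in blebbistatin explants and 2.85 CPM in controls, so the blebbistatin explant that led 27 of the genes held no Lyve1 count. At its depth, 3 counts would have been 0.0543 CPM.

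Among the lysosomal and killing genes were the 2 most abundant of the set. Per kilobase of transcript, the mean level over the 16 explants was 633 CPM for Lyz2, which encodes the lysozyme of macrophages, and 338 CPM for Gpnmb, a membrane glycoprotein of lysosomes and melanosomes. Lyz2 had 161, 637 and 1886 CPM in the lowest, median and highest blebbistatin explants, against 202, 495 and 3414 CPM in controls. Gpnmb had 319.8, 1077 and 3150.3 CPM in blebbistatin explants, against 405, 827 and 2553 CPM in controls. Mpeg1, the pore-forming perforin-2, had 16.7, 46.8 and 535 CPM in blebbistatin explants, against 9.40, 46.1 and 265 CPM in controls. Ctss, a lysosomal protease, had 7.07, 27.7 and 98.1 CPM in blebbistatin explants, against 9.90, 36.3 and 137 CPM in controls. Laptm5, a lysosomal membrane protein of blood cells, had 23.0, 68.7 and 302 CPM in blebbistatin explants, against 24.9, 55.2 and 145 CPM in controls. Lyz1, the neighbouring paralog of Lyz2, had 1.71% to 3.85% of the Lyz2 level per kilobase in blebbistatin explants and 2.29% to 3.39% in controls. The split of reads between these near copies is uncertain.

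Cd53, a leukocyte tetraspanin, had 7.98, 41.8 and 218 CPM in the lowest, median and highest blebbistatin explants, against 9.06, 23.0 and 116 CPM in controls. Spi1 had 1.00, 4.16 and 20.0 CPM in blebbistatin explants, against 1.28, 3.42 and 14.03 CPM in controls. Coro1a, an actin-binding protein of leukocytes, had 0.816, 2.93 and 19.3 CPM in blebbistatin explants, against 0.0481, 1.73 and 29.0 CPM in controls. Cd52, a small surface glycoprotein, had 0.0214, 0.654 and 6.83 CPM in blebbistatin explants, against 0, 0.896 and 3.30 CPM in controls. Pf4, a secreted chemokine of platelets and some macrophages, had 0.136, 0.855 and 5.48 CPM in blebbistatin explants, against 0.0333, 0.476 and 1.05 CPM in controls. Its highest level was in blebbistatin explant 7, where Ptprc was at 22.4 CPM.

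Mertk, a receptor through which phagocytes take up dying cells, varied least between explants. It had 159, 155, 164, 139, 102, 199.6, 133 and 110.3 CPM in blebbistatin explants 1 to 8. In control explants 1 to 8 it had 106, 116, 117, 84.9, 105, 106, 113 and 145 CPM. The highest explant had 2.35 times the level of the lowest, the narrowest span of the 31 genes, and control explant 6, high for 26 genes, was not high for Mertk.

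**Figure D2:**
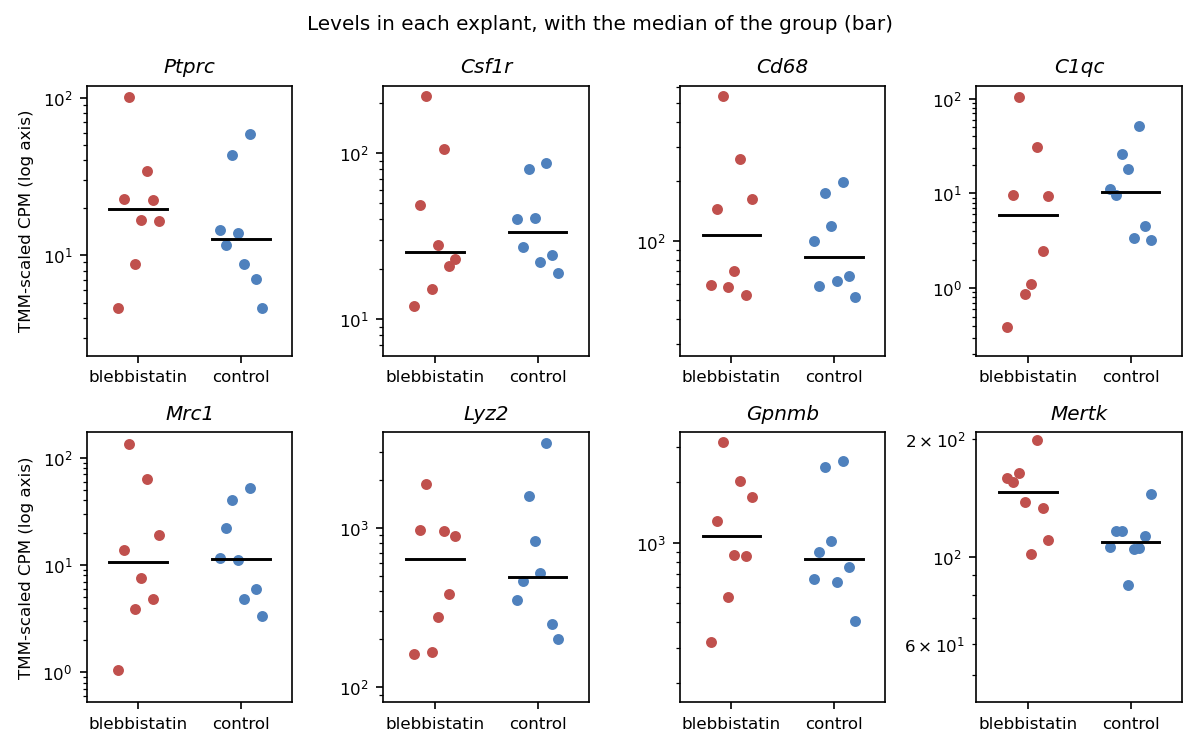
Level of selected genes in CPM on a log axis, with a point for each explant, blebbistatin left of control, and a bar at the median of the group. Ptprc spans 4.60 to 102 CPM in blebbistatin explants and 4.64 to 59.1 CPM in controls, whereas Mertk stays between 102 and 199.6 CPM in blebbistatin explants and between 84.9 and 145 CPM in controls.

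Whether the genes varied together was asked with the group means removed, so that a treatment difference could not produce the relation. A slope on the log2 CPM of Ptprc was fitted for every other gene with edgeR's quasi-likelihood test, with group in the model. At an adjusted p under 0.05, 22 of 29 genes increased with Ptprc, against 2.09% of the 15674 genes tested, and 0 of 29 decreased, against 0.804%. The median slope was 0.87 for the 29 genes and -0.01 for all genes. A slope of 1 means that the gene doubled for each doubling of Ptprc.

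The steepest slopes were those of C1qc, at 1.52 (SE 0.18, adjusted p = 3.78e-05 by edgeR), and Mrc1, at 1.35 (SE 0.15, adjusted p = 2.44e-05). Cd53 had a slope of 0.98 (SE 0.09) and Csf1r one of 0.87 (SE 0.09). Gpnmb followed Ptprc with a shallower slope of 0.73 (SE 0.07, adjusted p = 5.36e-06 by edgeR). All 6 lysosomal and killing genes increased with Ptprc, with slopes from 0.72 to 1.17, as did both tested C1q genes. So did 3 of 4 Fc receptor genes and 6 of 8 signalling and surface receptor genes. Of the membrane, cytoskeleton and transcription genes 3 of 4 increased, of the pattern and scavenger receptors 2 of 4, and of secreted ones 0 of 1. The share over all tested genes was 2.09%.

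The 7 genes that did not pass were Cd14 (slope 0.66, SE 0.21), Fcgr2b (0.26, SE 0.09), Cx3cr1 (0.59, SE 0.22), Cd52 (1.06, SE 0.43), Lyve1 (0.61, SE 0.61), Pf4 (0.21, SE 0.35) and Mertk (0.01, SE 0.05). Cd52, Lyve1 and Pf4 had large errors and few counts, so their slopes are poorly known. Mertk was measured precisely, with an adjusted p of 0.971 in edgeR and a correlation of 0.04 with Ptprc.

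**Figure D3:**
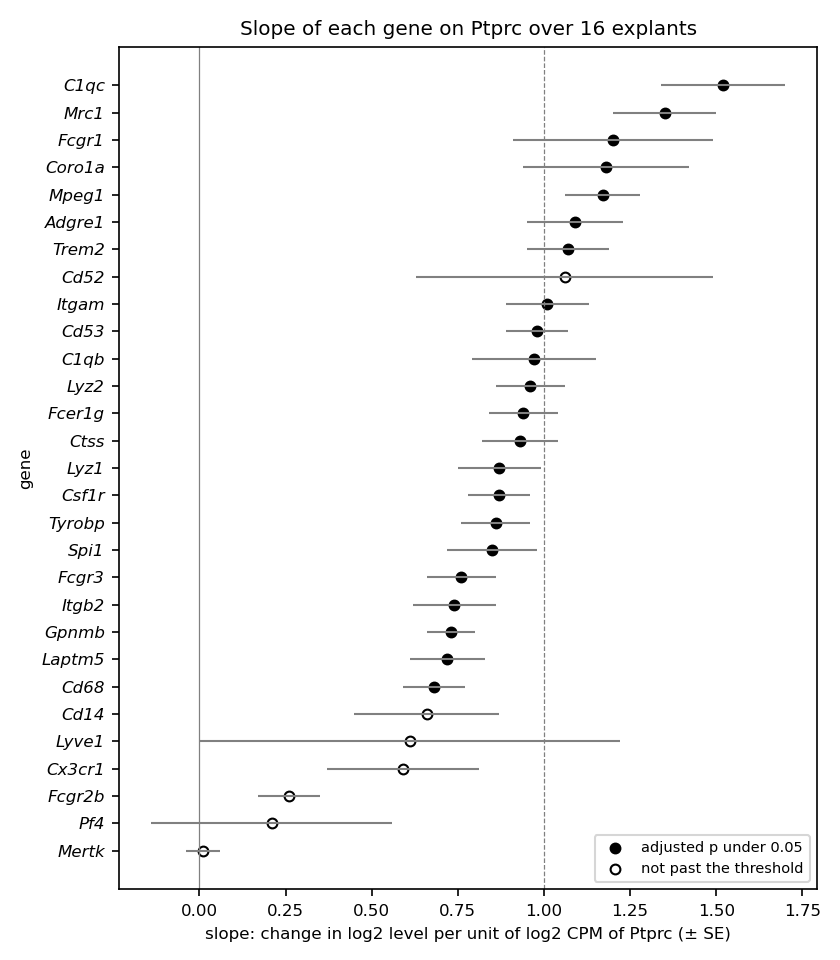
Slope of each gene on the log2 CPM of Ptprc over 16 explants, with its SE as a bar, filled where the adjusted p is under 0.05. Filled points run from 0.68 for Cd68 to 1.52 for C1qc, and Mertk lies at 0.01.

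Within each group the relation was found again in part. Among blebbistatin explants alone 14 of the 29 genes increased with Ptprc at an adjusted p under 0.05, against 0.51% of all genes, and among controls alone 20 did, against 0.804%. In both groups 12 genes passed, where no more than 0.51% of all genes could have. Without blebbistatin explant 3 and control explant 6, the 2 explants farthest from the median of Ptprc, 14 passed, against 0.53% of all genes, and all 14 were among the 22.

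The correlation of each gene with Ptprc, over 16 explants with group means removed, ran from 0.04 to 0.94 across 30 relations, with 19 above 0.8. Gpnmb had the highest, with a Pearson r of 0.94 and a rho of 0.88 (permutation p = 1e-05 for r, the smallest that 100000 permutations can give). Without the 2 explants farthest from the Ptprc median its r was 0.91. Each rho given here is a rank correlation like Spearman's, but with group means removed before ranking and again from the ranks. Over the 465 pairs of the 31 genes the median r was 0.73, against -0.00124 over all pairs of tested genes. For the 465 pairs it was 0.60 without blebbistatin explant 3 and control explant 6. The pair Lyz1 and Lyz2 had an r of 0.98, 196 pairs were above 0.8 and 18 below 0. A single component held 68.0% of the variance of the 31 genes and the next 10.3%.

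**Figure D4:**
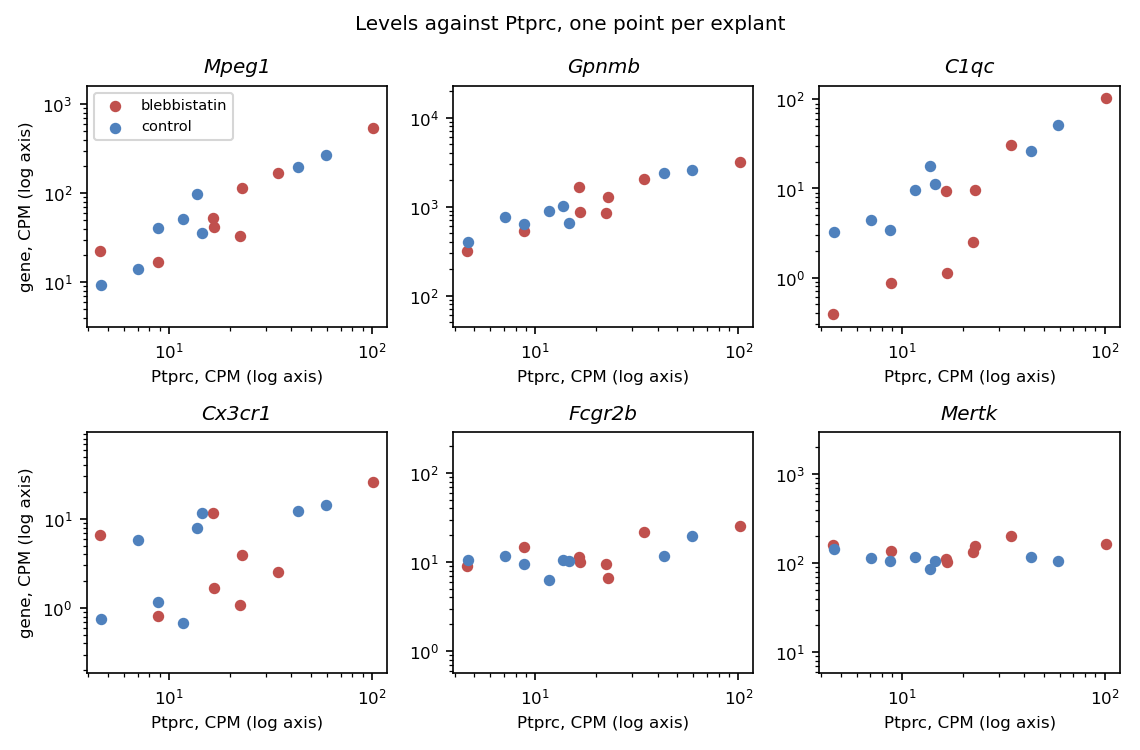
Level of 6 genes against that of Ptprc, both in CPM on log axes, with a point for each explant of either group. Mpeg1, Gpnmb and C1qc rise with Ptprc in both groups (r = 0.92, 0.94 and 0.89 with group means removed). Cx3cr1 scatters (r = 0.56), Fcgr2b varies less than these genes (r = 0.58) and Mertk stays level (r = 0.04).

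Properties of the libraries and the RNA of other cell types were set beside Ptprc in the same way, in 8 relations with p-values from 100000 permutations. Total counts had an r of -0.07, the number of genes detected 0.32, the mitochondrial share of counts -0.18 and the TMM factor 0.37. The summed epicardial markers had an r of -0.61 (rho -0.52, permutation p = 0.0159, adjusted p = 0.127 over the 8 relations) and -0.42 without the 2 explants farthest from the Ptprc median. The summed endothelial markers had an r of 0.53 (permutation p = 0.0469, adjusted p = 0.188). Summed fibroblast markers had an r of -0.06 and summed cardiomyocyte markers 0.16. None of the 8 passed an adjusted p of 0.05, and their part in the spread of leukocyte RNA was not tested.

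Other genes of macrophages and myeloid cells, from lists set by name, moved with Ptprc in part. Of 37 further myeloid genes in the table, 30 increased with Ptprc, against 2.09% of all tested genes, and 0 decreased, against 0.804%. C3ar1, the receptor for the complement fragment C3a, averaged 208 ± 236 CPM in blebbistatin explants and 175 ± 146 CPM in controls (SD, n = 8 each), with a slope of 0.88 (SE 0.08). Of 15 genes of lipid-handling and lysosomal macrophages, 11 increased with Ptprc, again against 2.09% of all genes. Gpnmb and Trem2, already counted above, are among these 11. Ctsd and Ctsb, lysosomal proteases made by many cell types, had shallow slopes of 0.40 (SE 0.05) and 0.53 (SE 0.06).

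The lists tied to particular states or origins were counted in the same way, and the difference between lists was not tested. Of 6 genes of resident macrophages 1, Mrc1, increased with Ptprc, and of 3 monocyte genes 0 did, where 2.09% of all tested genes increased and 0.804% decreased. Mrc1, Lyve1 and Pf4, 3 of those 6, belong to the set and were counted above. Of 6 genes of MHC class II and its regulators 0 did, and the highest of their group means was 6.62 CPM in blebbistatin explants and 6.84 CPM in controls, both for Rfxap. Of 13 ligands of the receptors 0 increased or decreased. Csf1 averaged 450.3 ± 168 CPM in blebbistatin explants and 633 ± 197 CPM in controls (SD, n = 8 each), with a slope of -0.30 (SE 0.08, adjusted p = 0.055 by edgeR). Of 12 epicardial genes 1, Krt18, a keratin, decreased with Ptprc, with a slope of -0.63 (SE 0.16, adjusted p = 0.0423 by edgeR).

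The 10 genes outside the set whose pattern was most like that of Ptprc over the 16 explants had r from 0.93 to 0.98. They were Lilr4b, Lilrb4a, Adam8, Atp8b4, Rgs2, Fyb, Ms4a6d, Edil3, Dock2 and Alox5ap. Lilr4b and Lilrb4a are paralogs, and reads may have been split between them.

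Blebbistatin against control was then compared for the same genes. At an adjusted p under 0.05 with edgeR's quasi-likelihood test, 0 of the 30 tested genes were higher and 0 lower in blebbistatin explants, against 0.606% of all 15675 genes in either direction. DESeq2 and limma voom also called 0 of them, against 2.73% and 0.721% of all genes tested by each. At an unadjusted p under 0.05 the count was 1, Mertk, where 12.2% of all genes passed. No gene had groups whose ranges did not overlap, and 0.242% of all tested genes did. The log2 fold change was above 0 for 22 of the 30, against 54.1% of all genes, and its median was 0.32, against 0.04 for all genes. Leaving out blebbistatin explant 3 alone made that median -0.26, and leaving out control explant 6 alone made it 0.70. It was 0.05 without blebbistatin explant 3 and control explant 6, and -0.16 with the log2 CPM of Ptprc as a covariate, and 0 genes passed in either fit.

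Mertk averaged 145 ± 31.4 CPM in blebbistatin explants and 112 ± 16.7 CPM in controls (SD, n = 8 each). Its log2 fold change was 0.38 (SE 0.13), it was above the control median in 7 of 8 blebbistatin explants, and its adjusted p was 0.225 in edgeR. Ptprc averaged 28.5 ± 30.9 CPM in blebbistatin explants and 20.3 ± 19.8 CPM in controls, and its log2 fold change was 0.49 with an SE of 0.57 (adjusted p = 0.782 by edgeR). Gpnmb averaged 1340 ± 927 CPM in blebbistatin explants and 1165 ± 827 CPM in controls, with a log2 fold change of 0.20 (SE 0.43). Lyz2 averaged 712 ± 590.0 CPM in blebbistatin explants and 954 ± 1091 CPM in controls, with a log2 fold change of -0.42 (SE 0.58). The SD of Ptprc exceeded its mean in blebbistatin explants and was just below it in controls.

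The largest positive value was that of Pf4, whose log2 fold change was 1.5 with an SE of 0.72 (adjusted p = 0.414 by edgeR), and the largest negative value that of Lyve1, at -1.14 (SE 1.02). Both rest on low counts. C1qa, tested without the filter on low counts, had a difference of -0.10 on the log2 scale with an SE of 1.05 (adjusted p = 0.982 by edgeR).

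The errors set what these explants could show. The SE of the log2 fold change ran from 0.13 to 1.03, with a median of 0.60. The 95% intervals of 29 of the 30 genes included 0, those of 25 included a doubling in blebbistatin explants (a log2 fold change of 1), and those of 16 included a level lowered by the same factor (-1). Those of 13 genes included both. A p above the threshold does not show equal levels.

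**Figure D5:**
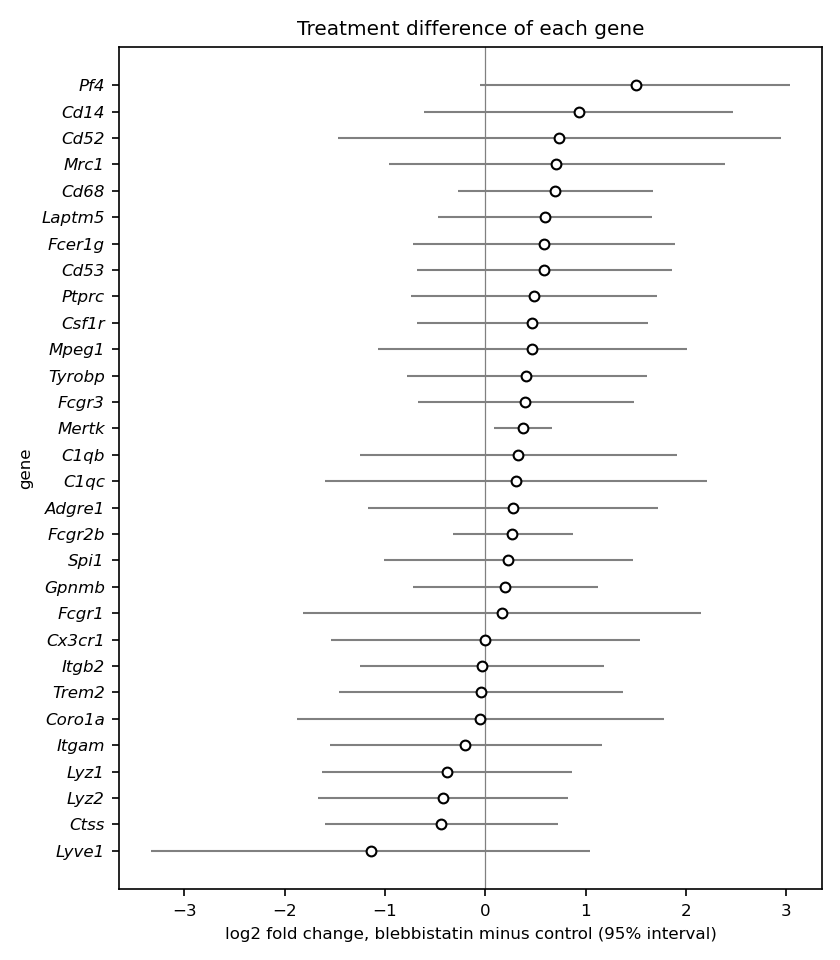
Log2 fold change of each of the 30 tested genes, blebbistatin minus control, with its 95% interval. Intervals run from -3.33 to 3.04, and 29 of the 30 include 0.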

How the data were processed

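RNA sequencing of 16 explants, 8 with blebbistatin and 8 controls, grouped by GEO's treatment label, was analysed from the counts per gene that the authors deposited. The submitters' processing notes name build mm10 (GRCm38) and the tools HTSeq 0.6.1p1, SAMtools 1.3, edgeR, Bowtie2 2.2.6.0 and TopHat2 2.1.0. Settings and strand are not given in the sources used. Every deposited gene exceeded 1 CPM in at least 4 libraries.

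Counts were scaled by TMM and filtered with filterByExpr in edgeR 4.0.16 (R 4.3.3), leaving 15675 genes and removing 130. The robust quasi-likelihood test fitted group alone, and p-values were adjusted by Benjamini and Hochberg across every tested gene, with 0.05 as the limit. Log2 CPM used a prior count of 2. Alternatives used DESeq2 1.42.0, limma 3.58.1, other scalings and filters, and explants left out. Intervals assumed 14 degrees of freedom. Bounds against an explant without counts used 3 counts and cover counting error only.

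The genes and lists were chosen with earlier results of these data known. Named genes were all members in the table, called or abundant genes of the other lists, and the 10 most like Ptprc. The relation to Ptprc had been planned as permutation tests of the correlations, adjusted over the list. The edgeR slope test, adjusted over all genes, replaced it after the correlations had been seen. A total of 4 motifs were searched and all are reported. Positions are from GENCODE M21. Lengths are of the longest principal transcript.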

Additional observations from a re-analysis of the deposited data

Results flagged for a closer look

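A level was singled out where the gap between the highest or lowest explant of a group and its nearest neighbour, over the whole range of the group, exceeded 0.526, Dixon's 95% value for 8 samples. The 31 genes and their summed level (on log2 CPM, their mean) were each examined in both groups of explants, which makes 64 sets. On the CPM scale this held in 30 of 64, all of them single genes, against about 1 in 20 by chance. On log2 CPM it held in 0 of 64, so the count rests on the scale. The genes vary together, so these are not 30 separate events, and 20 are blebbistatin explant 3 and 7 control explant 6.

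In blebbistatin explant 3 the levels were, in CPM, 102 for Ptprc (next highest 34.4), 541 for Cd68 (next highest 258), 220.2 for Csf1r (next highest 106), 96.1 for Adgre1 (next highest 43.6), 24.4 for Cd14 (next highest 8.63), 142 for Itgam (next highest 45.6), 13.9 for Fcgr1 (next highest 1.65), 44.8 for Fcgr3 (next highest 19.6), 230.2 for Fcer1g (next highest 83.1) and 213 for Tyrobp (next highest 92.3). In the same explant they were also 5.86 for C1qa (next highest 2.69), 103 for C1qc (next highest 30.6), 135 for Mrc1 (next highest 64.0), 1886 for Lyz2 (next highest 977), 51.2 for Lyz1 (next highest 21.99), 218 for Cd53 (next highest 78.4), 535 for Mpeg1 (next highest 169.6), 25.7 for Cx3cr1 (next highest 11.7), 20.0 for Spi1 (next highest 9.74) and 128 for Itgb2 (next highest 37.7).

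In control explant 6 the levels were, in CPM, 19.4 for Fcgr2b (next highest 11.6), 47.7 for Trem2 (next highest 17.7), 8.02 for C1qa (next highest 2.58), 54.5 for C1qb (next highest 22.7), 51.5 for C1qc (next highest 26.1), 3414 for Lyz2 (next highest 1599) and 77.2 for Lyz1 (next highest 35.1).

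The other 3 were Lyve1 at 2.23 CPM in blebbistatin explant 5 (next highest 1.04), Pf4 at 5.48 CPM in blebbistatin explant 7 (next highest 2.06) and Coro1a at 29.0 CPM in control explant 3 (next highest 10.2). Blebbistatin explant 3 had 52751420 total counts, a TMM factor of 1.05 and 16.8% mitochondrial counts, and control explant 6 had 31284639 total counts, a factor of 1.08 and 17.2%, all within the range of the other explants. What sets these explants apart was not tested.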

How the results depend on the processing

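No gene of the set passed the treatment test in any of the 26 alternatives, whose lowest adjusted p for any of them was 0.111. With 1 explant left out the count was 0 in each case. Over all genes, 95 passed in edgeR (0.606%), 170 with a filter of 5 CPM in 8 explants, 407 with DESeq2 (2.73%) and 113 with limma voom (0.721%). With the replicate block 177 passed, without TMM 116, and with 1 explant left out 44 to 206. Without both explants of highest Ptprc 131 passed, and with Ptprc as a covariate 113. Of the other lists 0 genes passed in edgeR, 1 without TMM and 3 with the 5 CPM filter. With DESeq2 9 passed, with limma voom 2 and with the replicate block 4. Without both explants of highest Ptprc 2 passed, with Ptprc as a covariate 2, and with 1 explant left out 0 to 6. These lists held 1 to 37 tested genes each in edgeR. The list genes tested in each alternative are not given, so these counts cannot be set beside the shares over all genes. The lists they came from are not given either. The median log2 fold change of the set was -0.26 to 0.70 with 1 explant left out. The count that increased with Ptprc, 22, became 14 in blebbistatin explants alone, 14 without the 2 explants farthest from the Ptprc median, and 20 to 23 with 1 explant left out. The median pairwise r, 0.73, became 0.78 in controls alone, 0.60 without those 2 explants, and 0.66 to 0.78 with 1 explant left out. Whether replicate numbers pair the explants was not tested. Same-numbered pairs had r from 0.00394 to 0.279, with a median of 0.0837 and 4 of 8 above 0.1. A blebbistatin explant was most like the control of its own number in 2 of 8.

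The treatment difference changed sign in 84 of 772 combinations of a gene and an alternative, all for differences that passed no test. With limma voom it was -0.19 for Adgre1, -0.47 for C1qb, -0.79 for C1qc, 1.28 for Coro1a, -0.93 for Fcgr1 and 0.21 for Itgb2. With the replicate number as a block it was -0.27 for Adgre1, -0.72 for C1qb, -0.91 for C1qc, -0.32 for Cd52, 0.59 for Coro1a, -0.19 for Cx3cr1, -1.27 for Fcgr1, 0.07 for Itgb2 and -0.02 for Mrc1. Without blebbistatin explant 3 and control explant 6 it was -0.07 for Adgre1, -0.13 for C1qb, -0.50 for C1qc, -0.01 for Csf1r, -0.50 for Cx3cr1, -1.19 for Fcgr1 and 0.05 for Trem2. With the log2 CPM of Ptprc as a covariate it was -0.68 for Adgre1, -0.71 for C1qb, -1.48 for C1qc, 0.35 for Coro1a, -0.33 for Csf1r, -0.16 for Cx3cr1, -0.01 for Fcer1g, -1.83 for Fcgr1, -0.07 for Fcgr3, -0.13 for Gpnmb, -0.19 for Mpeg1, -0.56 for Mrc1 and -0.33 for Spi1. With the DESeq2 Wald test it was 1.06 for Coro1a, -0.02 for Cx3cr1 and -1.56 for Fcgr1. With DESeq2 size factors in edgeR it was -0.01 for Cx3cr1. With mitochondrial genes taken out before scaling it was -0.01 for Cx3cr1. Leaving out 1 explant at a time gave, as lowest and highest, -0.45 and 0.67 for Adgre1, -0.60 and 0.81 for C1qb, -1.04 and 0.86 for C1qc, -0.06 and 1.03 for Cd53, -0.64 and 1.10 for Coro1a, -0.24 and 0.71 for Csf1r, -0.73 and 0.25 for Cx3cr1, -0.22 and 0.97 for Fcer1g, -1.61 and 0.58 for Fcgr1, -0.14 and 0.78 for Fcgr3, -0.11 and 0.47 for Gpnmb, -0.97 and 0.27 for Itgam, -0.65 and 0.42 for Itgb2, -0.87 and 0.24 for Lyz1, -0.81 and 0.24 for Lyz2, -0.47 and 0.95 for Mpeg1, -0.23 and 1.13 for Mrc1, -0.17 and 0.95 for Ptprc, -0.29 and 0.58 for Spi1, -0.67 and 0.69 for Trem2 and -0.17 and 0.82 for Tyrobp. Leaving out both explants and the Ptprc covariate were chosen after seeing the data. The cause of these changes was not tested. Genes near 0 counts are limited by depth.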

Other observations

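The C1q chains did not keep 1 ratio. Per kilobase of transcript, C1qa stood at 0% to 159% of C1qb in blebbistatin explants, with a median of 5.56%, and at 0.747% to 15.97% in controls, with a median of 2.37%. C1qa was removed by the filter on low counts, with 0 counts in blebbistatin explant 4 and 2 in control explant 7. Its low ratios are therefore poorly known. The 159% was in blebbistatin explant 5, which had 2.69 CPM of C1qa, 1.77 of C1qb and 1.12 of C1qc. By contrast, C1qc stood at 6.43% to 94.7% of C1qb in blebbistatin explants and at 34.9% to 104% in controls.

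Of the lipid-handling list, in which 0 of 15 genes passed the treatment test, values of 2 genes are given here. Spp1, which encodes the secreted protein osteopontin, averaged 143 ± 158 CPM in blebbistatin explants and 275 ± 316 CPM in controls (SD, n = 8 each) and increased with Ptprc, with a slope of 1.01 (SE 0.10, adjusted p = 5.36e-06 by edgeR). Lpl, a lipase for lipoprotein fats, averaged 182 ± 93.7 CPM in blebbistatin explants and 69.7 ± 55.9 CPM in controls, and its difference on the log2 scale was 1.38 with an SE of 0.34 (adjusted p = 0.0593 by edgeR), and a slope on Ptprc of 0.38 (SE 0.09). Both were chosen for mention after their values were seen.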
